A study of Drosophila melanogaster with 6 samples.

Results

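The C-type lectin genes described here are 10 named genes of the fly's lectin family. A gene was measured if a probe set on the array is paired with that gene and no other. By this rule 6 of the 10 genes were measured, against 12444 probe sets of the array that are paired with 1 gene each. The 6 are lectin-33A (CG16834), lectin-24Db (CG2958), lectin-21Ca (CG2826), lectin-24A (CG3410), lectin-29Ca (CG17799) and lectin-30A (CG17011). The genes lectin-37Da and lectin-37Db share 1 probe set, so their signals cannot be told apart. For lectin-28C and lectin-22C the annotation used here pairs no probe set with the gene, and they are not analysed here. The arrays held RNA of whole virgin Canton-S males, a wild-type laboratory strain reared at 25 °C, at 4 days of age, in pools of about 12 males. In 3 pools each male had courted a virgin female during 5 min without mating, and these males were kept because they courted robustly. In the 3 unexposed pools the males were handled in the same way with no female, and no choice by behaviour is described for them. The effect of a female and the choice of strong courters therefore cannot be told apart.

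C-type lectins are proteins that bind sugars through a compact domain that often needs calcium. In insects most are secreted, and members of the family act in the recognition of microbes and parasites by blood cells, in the seminal fluid and in the cuticle. In flies, lectin-24A is known as a gene induced by attack of parasitoid wasps, and the products of lectin-37Da and lectin-37Db bind blood cells and enhance encapsulation. The study places lectin-24Db and lectin-28C in sperm formation by annotation. The genes lectin-24Db, lectin-28C and lectin-33A were singled out by the study on these same samples. A higher value of lectin-24Db or lectin-33A here is therefore not independent evidence. On the arrays, the study listed lectin-24Db and lectin-28C as higher in courting males, by its own signal summaries, test and threshold. For lectin-33A, too few of the study's methods of computing signals gave significance to make its cut-off. By real-time PCR the study also reported lectin-28C and lectin-33A higher in courting males, in array samples and in independently obtained ones. With array and independent samples grouped, the study found the difference significant for lectin-33A and not for lectin-28C. RNA was taken from the whole body, so more cells of a type and more RNA per cell cannot be told apart.

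Only lectin-29Ca and lectin-30A lay above background on every array. Background was taken as the median signal of 23 control probe sets for bacterial, yeast and mouse genes, for which a fly has no transcript. This median was 80.1 and 81 on the exposed and unexposed arrays of replicate 1, and between 22.9 and 31.3 on the other 4 arrays. Of the 6 genes, 2 exceeded this median on 6 of 6 arrays and lectin-24A exceeded it on none. The other 3 (lectin-33A, lectin-24Db and lectin-21Ca) exceeded it on the 4 arrays of replicates 2 and 3 and not on those of replicate 1. Above the 75th percentile of the same controls, lectin-24Db and lectin-21Ca stood on 4 arrays and lectin-33A on 2, exposed 2 and 3. The controls ranged widely, with a highest signal of 1500 to 4243 per array. That highest signal was exceeded by lectin-30A on 4 arrays and by lectin-29Ca on 0. The filter of the study's methods keeps probe sets that reach 100 on 3 or more arrays, and it was passed by 3 of the 6 genes, lectin-21Ca, lectin-29Ca and lectin-30A.

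**Figure D1:**
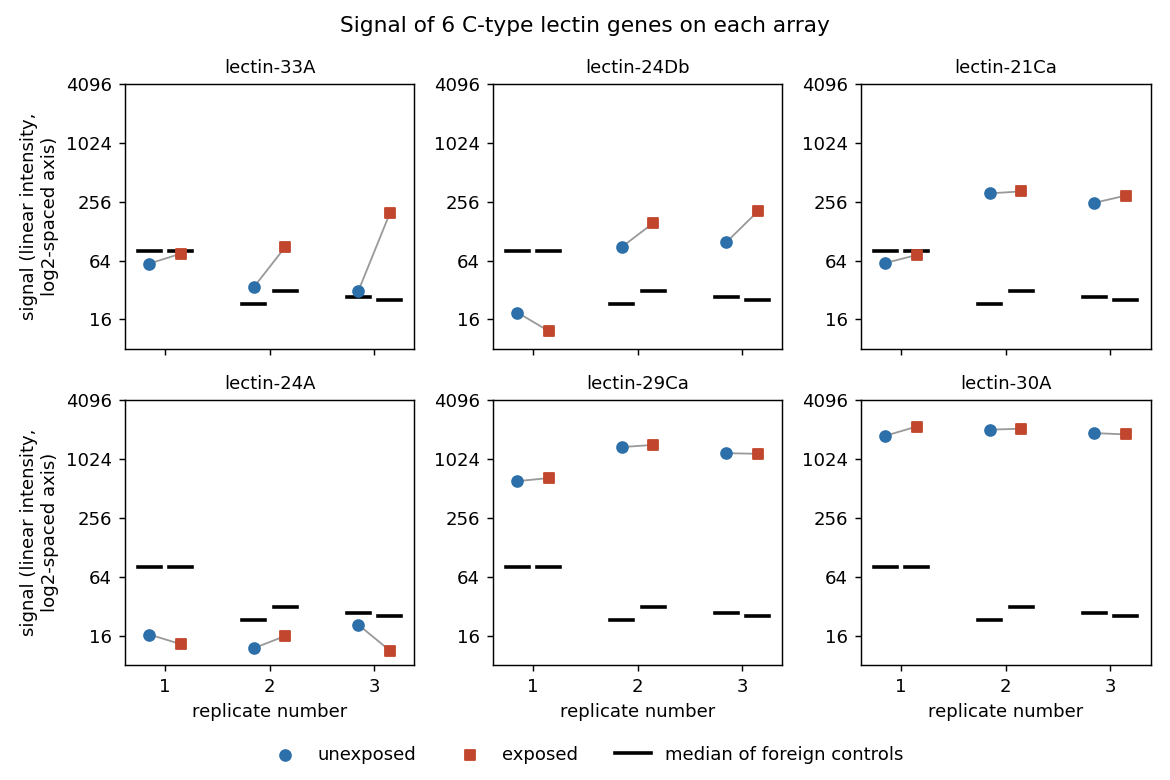
Signal of each of the 6 C-type lectin genes with a probe set of its own (vertical axis, linear intensity on a log2-spaced axis) on the arrays of replicates 1 to 3 (horizontal axis). Circles are unexposed pools, squares are exposed pools, grey lines join arrays of the same number, and black bars mark the foreign-control median of each array. lectin-29Ca and lectin-30A stand above the bars on 6 arrays and lectin-24A stands below them on 6.

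The arrays of replicate 1 differed from the other 4 in several measures of array quality. The ratio of the 3′ to the 5′ control probe set of GAPDH reached 5.8 (exposed) and 1.93 (unexposed) in replicate 1, while replicates 2 and 3 spanned 1.3 to 1.52. For actin it was 17.8 and 5.79, against 2.19 to 2.36. Between 59.8% and 65.4% of the probe sets exceeded the foreign-control median on the arrays of replicate 1, against 87.5% to 92.6% on the others. As a check of the label, 8 of 8 accessory gland genes were above background on all 6 arrays, with summed signals of 32653 to 34309 in exposed and 31094 to 35085 in unexposed pools. Of 8 testis genes, 6 were above it on all 6 arrays, with summed signals of 15133 to 18359 and 15876 to 21725. Of 5 blood cell genes measured, 3 were above it on all 6 arrays, with summed signals of 644 to 844 in exposed and 649 to 695 in unexposed pools. Against the label of male flies, 8 of 8 measured genes of the chorion and vitelline membrane, which the ovary makes, were also above background on all 6 arrays. Their summed signal was 7230 and 7800 on the exposed and unexposed arrays of replicate 1 and 2110 to 2416 on the others. The part of these differences in the lectin values was not tested.

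In exposed males, lectin-33A gave the highest ratio of the 6 genes. Values are given as linear signals of replicates 1 to 3 in order, for this gene and the ones that follow. Replicates 1 to 3 read 75.2, 88.2 and 194 after courtship and 59.6, 34.4 and 31.5 in unexposed males. In the deposited signals the groups did not overlap, and every exposed pool was above every unexposed pool. Over all 13966 probe sets that are not controls, 49 (0.351%) showed such a separation in this direction. Set against the background of the same array, the exposed signals were 0.938, 2.82 and 7.68 times the foreign-control median, and the unexposed signals were 0.736, 1.5 and 1.16 times. Both signals of replicate 1 thus lay under background. On this scale exposed 1 was below unexposed 2 and 3, so the groups overlapped. The signals of unexposed 2 and 3 lay under the 75th percentile of the foreign controls, which was 36.9 and 35.5 on these arrays. The median log2 ratio over all probe sets was -0.20, -0.08 and 0.05 in the same pairs, so it too was lowest in pair 1 and highest in pair 3. The summed signals of the accessory gland, testis, blood cell and chorion genes had the same order of pairs, and the part of this trend in the values of lectin-33A was not tested.

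The mean log2 ratio of lectin-33A over 3 pairs was 1.44, a 2.71-fold higher signal in exposed pools. Its standard error of 0.47 is limma's moderated one, which draws the gene's own spread toward that of all probe sets. The ratios were 0.34, 1.36 and 2.63 in pairs 1 to 3, so the pairs agreed in sign and not in size. The limma fit over all probe sets gave an adjusted p of 0.92, so the difference did not pass. A 95% interval of the log2 ratio from the same moderated fit ran from 0.17 to 2.71, with no allowance for the number of probe sets tested. An interval from the 3 pair ratios alone was not computed. Without replicate 3 the ratio was 0.85, and without replicate 1, where both signals were below background, it was 1.99. Counting lectin-33A itself, 40 probe sets had a log2 ratio at least as high, of which 14 were higher in 3 of 3 pairs. Of the 40, 6 had groups that did not overlap in the deposited signals.

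**Figure D2:**
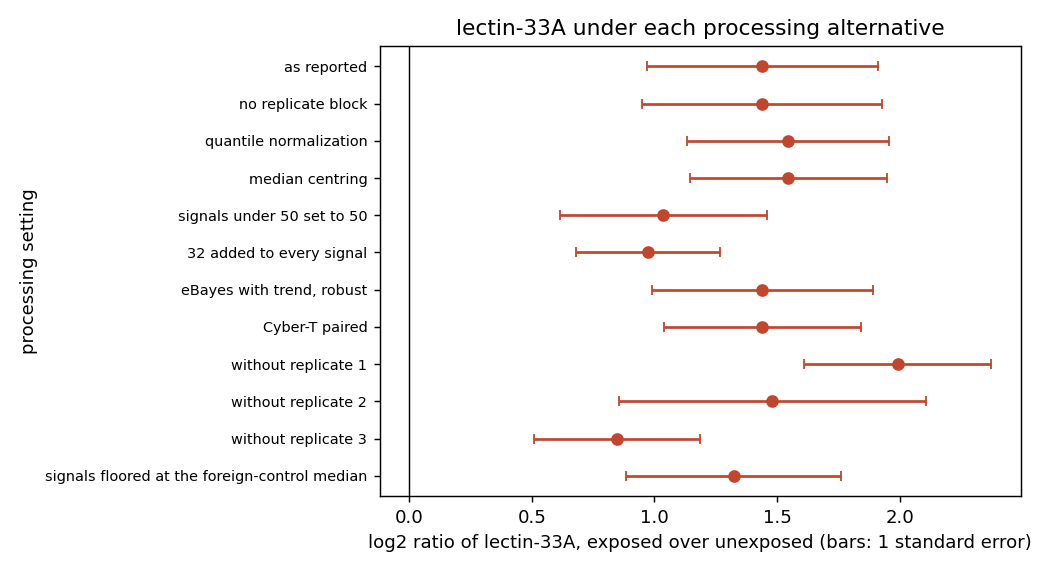
Log2 ratio of lectin-33A, exposed over unexposed (horizontal axis), under the reported setting and 11 alternatives (vertical axis). Points are estimates and bars are 1 moderated standard error. The estimates lie between 0.85 and 1.99 and all are above 0.

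By a rule on likeness over the 6 arrays, the genes above the study's filter whose log2 signals followed lectin-33A most closely were CG15293 (Pearson r = 0.902), CG9512 (r = 0.901) and PPO1 (r = 0.877). They were picked for this likeness over only 6 arrays and are given as a description. The prophenoloxidase gene PPO1 encodes an enzyme of melanin formation in blood cells. It read 404, 556 and 901 after courtship and 598, 368 and 380 in unexposed males. Unlike lectin-33A, PPO1 was lower in the exposed pool of pair 1, as were CG15293 (3480 against 3518) and CG9512 (2438 against 2608).

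Among the named C-type lectin genes that were measured, lectin-24Db had the second highest mean log2 ratio, after lectin-33A. High log2 ratios in single pairs also occurred in other genes with a C-type lectin domain. CG14499 reached 2.34 in pair 3 and CG11211 reached 1.07 in pair 2, and both had a ratio below 0 in another pair. In pair 2 the ratio was 0.90 for CG7763 and 0.82 for CG8343. Replicates 1 to 3 of lectin-24Db read 12.2, 155 and 203 after courtship and 18.8, 88.2 and 98.7 in unexposed males. The groups overlapped because both arrays of replicate 1 lay far below the other 4. Within replicates 2 and 3, both exposed pools were above both unexposed pools. The share of all probe sets that did so was not counted, so this is a description only. The log2 ratios were -0.63, 0.81 and 1.04 in pairs 1 to 3, with a mean of 0.41 (standard error 0.38, adjusted p = 0.92 from limma). In pair 1 the signals were 0.152 and 0.233 times the foreign-control median, so that ratio compares values under background. The ratio depended on which pairs were used. It was 0.93 without replicate 1 (adjusted p = 1 from limma), 0.21 without replicate 2 and 0.090 without replicate 3, and none of these passed.

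The last of the 3 genes below background in replicate 1 was lectin-21Ca. Replicates 1 to 3 read 72.9, 325 and 295 after courtship and 60.4, 310 and 249 in unexposed males. Each exposed pool was higher than its partner, by log2 ratios of 0.27, 0.07 and 0.24, while the spread between replicates was far larger than the difference in any pair. Its mean log2 ratio of 0.19 had a standard error of 0.14 and an adjusted p of 0.92 (limma), and its 95% interval ran from -0.18 to 0.57. Of the 6 genes, lectin-33A and lectin-21Ca (2 genes) were higher after exposure in 3 of 3 pairs, against 6.56% of all probe sets. In pair 1 the ratio of lectin-21Ca rests on signals at 0.91 and 0.746 times the foreign-control median.

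The 2 genes above background throughout differed little between treatments. Replicates 1 to 3 of lectin-29Ca read 652, 1421 and 1154 after courtship and 607, 1352 and 1171 in unexposed males. Both arrays of replicate 1 were the lowest of their group, and the groups overlapped. The mean log2 ratio of 0.05 had a standard error of 0.13 and an adjusted p of 0.956 (limma), and its 95% interval ran from -0.31 to 0.42. The gene lies next to Acp29AB, which encodes a seminal fluid protein of the accessory gland with a C-type lectin domain, with no other protein-coding gene between them. Acp29AB read 563, 947 and 856 after courtship and 506, 943 and 778 in unexposed males. Its mean log2 ratio was 0.10 (standard error 0.14, adjusted p = 0.927 from limma). Both neighbours were lowest on the arrays of replicate 1 in both treatments. The deposited signals do not show how far related transcripts hybridize to each probe set.

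Replicates 1 to 3 of lectin-30A read 2191, 2081 and 1818 after courtship and 1763, 2036 and 1879 in unexposed males. The arrays of replicate 1 lay at both ends, with the exposed array the highest of the 6 and the unexposed array the lowest. Its exposed pool was higher in pairs 1 and 2 and lower in pair 3, and the groups overlapped. The mean log2 ratio of 0.10 had a standard error of 0.15 and an adjusted p of 0.934 (limma), and its 95% interval ran from -0.31 to 0.51. Without replicate 1 it was -0.0076, so no direction can be given for this gene.

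No lectin-24A signal was seen above background in either group. Its signals lay between 11.3 and 20.7 on the 6 arrays, and the highest of them relative to its array was 0.76 times the foreign-control median. The log2 ratio of -0.26 (standard error 0.29, adjusted p = 0.92 from limma) therefore compares values at background. A transcript below the array's detection in whole males is not shown to be absent.

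The probe set shared by lectin-37Da and lectin-37Db read 185, 442 and 666 after courtship and 163, 562 and 444 in unexposed males. The signal exceeded background on 6 of 6 arrays, exposure gave the higher value in pairs 1 and 3, and the groups overlapped. The mean log2 ratio was 0.14 (standard error 0.23, adjusted p = 0.938 from limma), and without replicate 3 it was -0.083. Next to these genes, with no protein-coding gene between it and lectin-37Da, lies Lectin-galC1, which encodes a galactose-binding lectin. Lectin-galC1 read 174, 578 and 583 after courtship and 211, 541 and 614 in unexposed males, and its log2 ratio of -0.09 (standard error 0.15, adjusted p = 0.94 from limma) did not pass either. That ratio was 0.01 without replicate 1, 0.02 with median centring and 0.03 with quantile normalization, so no direction can be given.

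**Figure D3:**
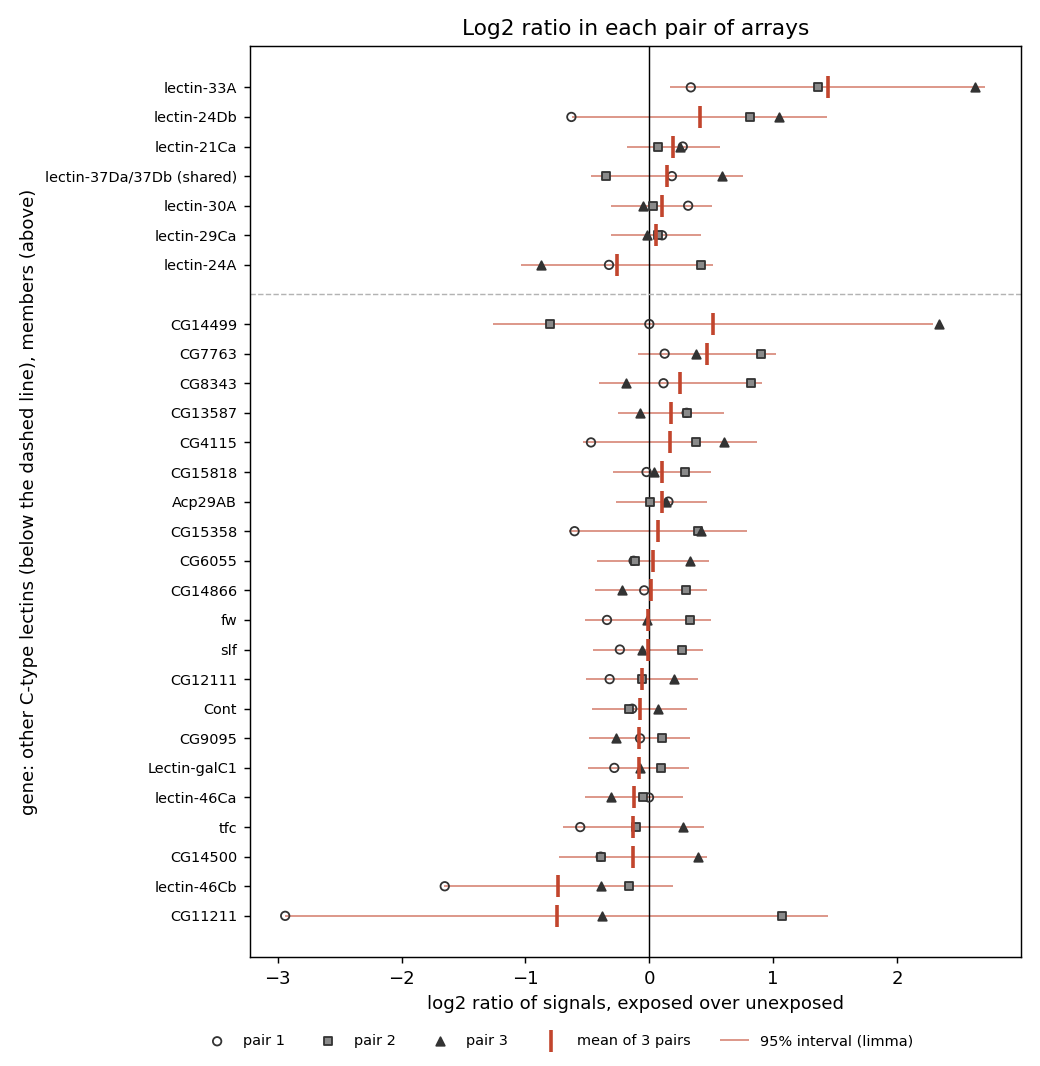
Log2 ratio of signals, exposed over unexposed, for the measured C-type lectin genes (above the dashed line) and 21 other genes with a C-type lectin domain (below it). Symbols are pairs 1 to 3, red bars are means and red lines are moderated 95% intervals from limma. The interval of lectin-33A, from 0.17 to 2.71, is the one that lies above 0, before adjustment over all probe sets.

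Across the 6 genes, none passed at an adjusted p under 0.05 from limma, as none of the 13966 probe sets did (0%). The study's threshold, an unadjusted p of 0.001, was met in limma by 0 of the 6 and by 5 probe sets in all (0.0358%). A rewritten paired Cyber-T test, the kind the study used, passed 28 probe sets at this level and 2 after adjustment, with none of the 6 lectin genes among them. At an unadjusted p under 0.05 from limma, 1 of the 6 was higher, lectin-33A, against 0.544% of all probe sets that were higher at this level. Of the 6, 5 had a mean log2 ratio above 0, and the median of the 6 was 0.15, against -0.09 over all probe sets. After each array was centred on its median, the 6 ratios ran from -0.15 (lectin-24A) to 1.55 (lectin-33A). Over all probe sets the median was then 0.02. The median over the genes was 0.19, 0.24 and 0.11 in pairs 1 to 3, against -0.20, -0.08 and 0.05 over all probe sets. Since 2 of the 6 were singled out on these samples and 4 lay at or under background on at least 2 arrays, these counts describe the genes and carry no test.

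Among 21 other genes with a C-type lectin domain that have a probe set of their own, 10 had a mean log2 ratio above 0 and 11 below, with a median of -0.01. None had an unadjusted p under 0.05 from limma, and 13 were above background on all 6 arrays. The 4 with the highest mean signal were CG8343, Acp29AB, lectin-46Cb and lectin-46Ca. CG8343 read 1028, 2199 and 1584 after courtship and 950, 1244 and 1801 in unexposed males, and its log2 ratio was 0.25 (standard error 0.24, adjusted p = 0.92 from limma). The groups of CG8343 overlapped, and without replicate 2 the ratio was -0.035, so no direction can be given.

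The adjacent genes lectin-46Ca and lectin-46Cb encode seminal fluid proteins that take part in binding of sex peptide to sperm. Both had ratios below 0 in 3 of 3 pairs. They were the 2 of the 21 genes that did, against 17.9% of all probe sets, and neither passed the test. Another 2 of the 21, Acp29AB and CG7763, had ratios above 0 in 3 of 3 pairs, against 6.56% of all probe sets. lectin-46Ca read 197, 629 and 507 after courtship and 197, 653 and 628 in unexposed males, with a log2 ratio of -0.12 (standard error 0.15, adjusted p = 0.922 from limma). lectin-46Cb read 161, 861 and 739 after courtship and 505, 964 and 970 in unexposed males, with a log2 ratio of -0.74 (standard error 0.34, adjusted p = 0.92 from limma). Of its pairs, pair 1 had the ratio farthest from 0 at -1.65. The array of exposed 1 had the highest 3′ to 5′ ratio, and the part of this in the value was not tested. In pairs 2 and 3 the ratios were -0.16 and -0.39, and without replicate 1 the mean was -0.28. The other gene above background with a ratio far from 0 was CG7763, at 0.47 (standard error 0.21, adjusted p = 0.92 from limma), with ratios of 0.12, 0.90 and 0.37 in pairs 1 to 3.

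For lectin-24Db and lectin-21Ca the arrays of replicate 1 stood well apart from the other 4. The mean signal on the 2 arrays of replicate 1 was 0.114 times that on the other 4 arrays for lectin-24Db, 0.226 times for lectin-21Ca, 0.494 times for lectin-29Ca and 0.774 times for lectin-33A. For lectin-24A and lectin-30A it was 0.989 and 1.01 times, in lectin-30A as the mean of a high and a low array. Over all 13966 probe sets the median of this ratio was 0.874, its 25th percentile 0.453 and its 5th percentile 0.217. Thus lectin-24Db lay below the 5th percentile, lectin-21Ca just above it, and lectin-29Ca above the 25th. The same ratio was 0.607 for Acp29AB, 0.327 for lectin-46Ca and 0.377 for lectin-46Cb. Among the 21 other lectin genes it ran from 0.0 (CG14499) to 1.82 (CG14866). CG11211 (0.105) and fw (0.0465, under background on all 6 arrays) were also below lectin-24Db. Pools and hybridization of replicate 1 cannot be told apart, and the facility that processed each array is not given in the sources used here.

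**Figure D4:**
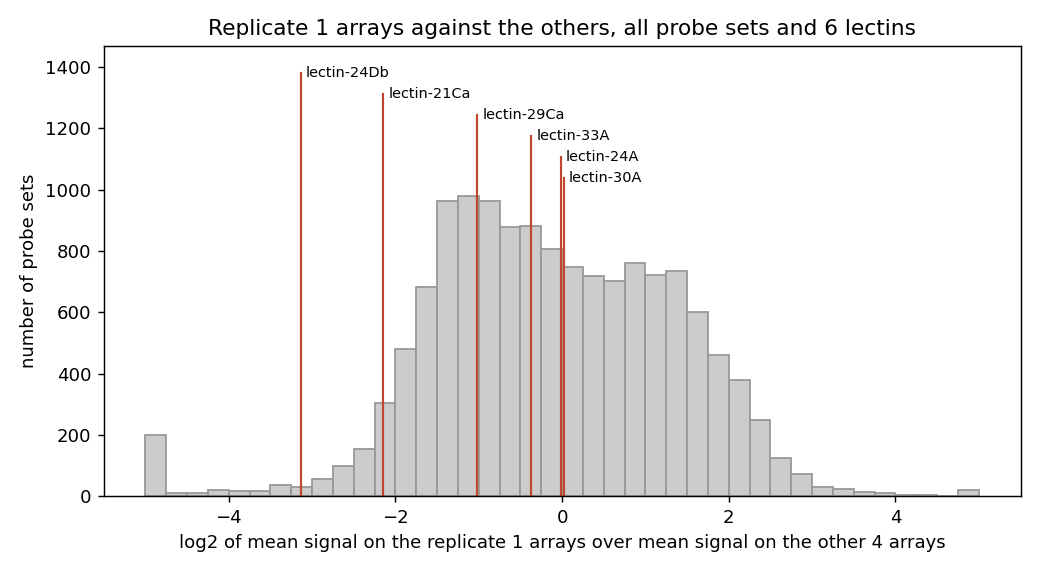
Number of probe sets (vertical axis) by the log2 ratio of their mean signal on the replicate 1 arrays to that on the other 4 arrays (horizontal axis). Red lines mark the 6 C-type lectin genes and the outermost bars also hold more extreme ratios. lectin-24Db and lectin-21Ca lie in the left tail, at 0.114 and 0.226 times, and lectin-30A lies at 1.01 times.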

How the data were processed

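RNA of 6 pools of males was hybridized to one-colour Affymetrix Drosophila arrays. The authors deposited 1 linear intensity per probe set and array; the submitters' notes name GCOS 1.2, and whether the values are the GCOS or a dChip summary, with their scaling, is not given in the sources used here. Of 14010 rows, 44 are controls. Names follow the platform annotation, updated by Entrez ID to RefSeq symbols (12444 rows with 1 gene, 327 with several, 1239 with none), and where a gene has more than 1 probe set the brightest stands for it.

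Signals under 1 were set to 1, log2 was taken, and limma 3.58.1 in R 4.3.3 compared exposed with unexposed arrays with the replicate number as a block, without a filter so that all members come from 1 fit, with Benjamini-Hochberg adjustment over 13966 probe sets. Fold changes of low signals depend on the floor. Arrays were paired by number because the study collected groups in parallel and used a paired test. After group means were subtracted, arrays of one number correlated at 0.844, 0.76 and 0.78, and differently numbered arrays of replicates 2 and 3 at 0.806 and 0.814, so the data do not tell those pairs apart. All members are named, with the 4 brightest other lectins and the 2 with the ratio farthest from 0 above background. CG15293, CG9512 and PPO1 follow a rule on correlation, and Lectin-galC1 was added as a neighbour after its values were seen. The members, lists and rules were chosen with earlier results of these data known. The code of the fit was tested on simulated arrays. These held only probe sets past the study's filter, with the same noise for every probe set of a pair, so they do not bear on low signals. The study's filter, other normalizations, floors, variance models, a rewritten Cyber-T test and leaving out replicates were alternatives. The number of arrays limits the precision, and p-values measure the spread between these pools. No coordinates are given, since the array design and gene table follow different builds.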

Additional observations from a re-analysis of the deposited data

How the results depend on the processing

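Of the 6 genes, 4 lay under background on at least 2 arrays, which limits their ratios, while lectin-29Ca and lectin-30A were above it on all 6. None of the 6 genes and none of the 21 other lectins passed an unadjusted p under 0.001 in any setting run. For lectin-33A the log2 ratio stayed above 0 and the adjusted p lay between 0.773 and 1, with 0.97 after 32 was added to every signal and 1.04 with signals under 50 set to 50. Of the values of the 6 genes and the shared probe set under alternatives, 76 kept their direction and call and 3 changed sign, all with a replicate left out. Leaving out a replicate gave log2 ratios of -0.60 to 0.045 for lectin-24A (above 0 without replicate 3), -0.0076 to 0.17 for lectin-30A (below 0 without replicate 1) and -0.083 to 0.38 for the lectin-37Da and lectin-37Db probe set (below 0 without replicate 3). With no signal above 50 or above the foreign-control median, lectin-24A has no ratio under those floors. A floor at that median was chosen after seeing the data. Genes above background numbered 2, also 2 with the 75th percentile of the foreign controls in place of their median, and 5 when 3 of 6 arrays above the median sufficed. Over all probe sets past the study's filter, 2 passed an unadjusted p under 0.001 and none an adjusted p under 0.05 with the replicate block. With no replicate block 1 passed the former, with quantile normalization 1, with signals under 50 set to 50 4, with 32 added 4, with Cyber-T 21, and with no filter 5. Leaving out a replicate gave 0 to 14. At the adjusted threshold Cyber-T gave 1 and leaving out a replicate 0 to 2. The block changed no lectin's call. Of the other lectins described, CG8343 and Lectin-galC1 changed sign in settings given with their values.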
